A study of Mus musculus with 8 samples.

Results

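The DNA replication and cell cycle genes described here are 46 genes of mouse embryonic stem cells (mESCs): 12 for origin licensing, 4 for helicase activation, 4 for the sliding clamp and its loaders, 4 polymerase and primase genes, 3 for deoxynucleotide synthesis, 5 D cyclin and kinase genes, 6 E, A and B cyclin and kinase genes, 4 CDK inhibitors and 4 E2F, RB and p53 regulators. Each was taken as the locus of the RNA-Seq count table whose most frequent gene name was that of the gene, and all 46 were found among 44396 loci. For Pcna the most frequent entry was a blank name, so blank entries were left out of that count. Oct4-GFP mESCs of a single line, grown without feeders on gelatine with LIF and inhibitors that hold the naive state, received 10 µM morphine or NaCl vehicle for 24 h. Poly(A) RNA-Seq and H3K27me3 ChIP-Seq were each made from 2 control and 2 morphine-treated samples, which gives 2 against 2 for every comparison. The same line served both conditions, with the Oct4 reporter also in the control cells. For the H3K27me3 samples the methods speak of biological replicates, and for the RNA-Seq samples of duplicates. Nothing states that the duplicates came from separate cultures, so the p-values measure the spread between these libraries, which may be technical.

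In G1 the origin recognition complex (Orc genes), Cdc6 and Cdt1 load the MCM2-7 helicase onto origins, and geminin (Gmnn) blocks Cdt1 once S phase has begun. Mcm10, Cdc45 and the GINS complex turn the loaded helicase on, primase and polymerase alpha lay the primers, polymerases delta and epsilon extend them on the Pcna clamp, and ribonucleotide reductase and thymidylate synthase supply deoxynucleotides. Cyclin D, E, A and B kinases drive the phases, CDK inhibitors restrain them, and RB holds back E2F, a factor for many of the genes above. mESCs cycle quickly with a short G1 and a high, little-varying level of cyclin E, and Cdkn2a and Cdkn2b are known targets of Polycomb repression and its mark H3K27me3 in many cell types.

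The RNA-Seq libraries held 25081266 to 29531096 counts each, and 20350 loci passed the filter on low counts, among them all 46 genes. By summed marker levels the cells matched their label. All 10 mESC markers were measured, with a summed level of 5221 to 5383 CPM (counts on a common library size after TMM scaling) in the 4 libraries, against 39.5 to 44.5 CPM for the 9 of 12 early lineage markers and 24.7 to 27.4 CPM for the 5 of 9 feeder and fibroblast markers that passed the count filter, with Dcn at 0 in every library. Among the mESC markers Dppa3 was an exception, at 0.71 to 1.11 CPM. That was below the lineage marker Sox1 at 15.1 to 16.6 CPM and the fibroblast marker Acta2 at 9.63 to 11.4 CPM. The H3K27me3 peak lists held 8681 to 13778 peaks a library. In bulk RNA, fewer cells in a phase of the cycle and less RNA per cell cannot be told apart.

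Morphine left most of these genes near their control level. Of the 46 genes, 2 were lower after morphine at an adjusted p of 0.05 or less (edgeR's quasi-likelihood test, Benjamini-Hochberg over 20350 loci), namely Pola1 and Atad5, none was higher and 44 did not pass. Among all loci tested, 1.52% were called, 0.904% as lower and 0.614% as higher. At an unadjusted p under 0.05 there were 13 of the 46, 8 lower and 5 higher, against 20.5% of all loci, 10.8% lower and 9.70% higher. For 37 of the 46 the fitted change was under 10% in either direction. Their median log2 fold change was -0.01, and that of all loci was 0.00 with quartiles of -0.14 and 0.14. The control and morphine libraries did not overlap for 26 genes, 14 of them lower and 12 higher after morphine, which compares with 52.7% of all loci, 26.8% lower and 26.0% higher.

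**Figure D1:**
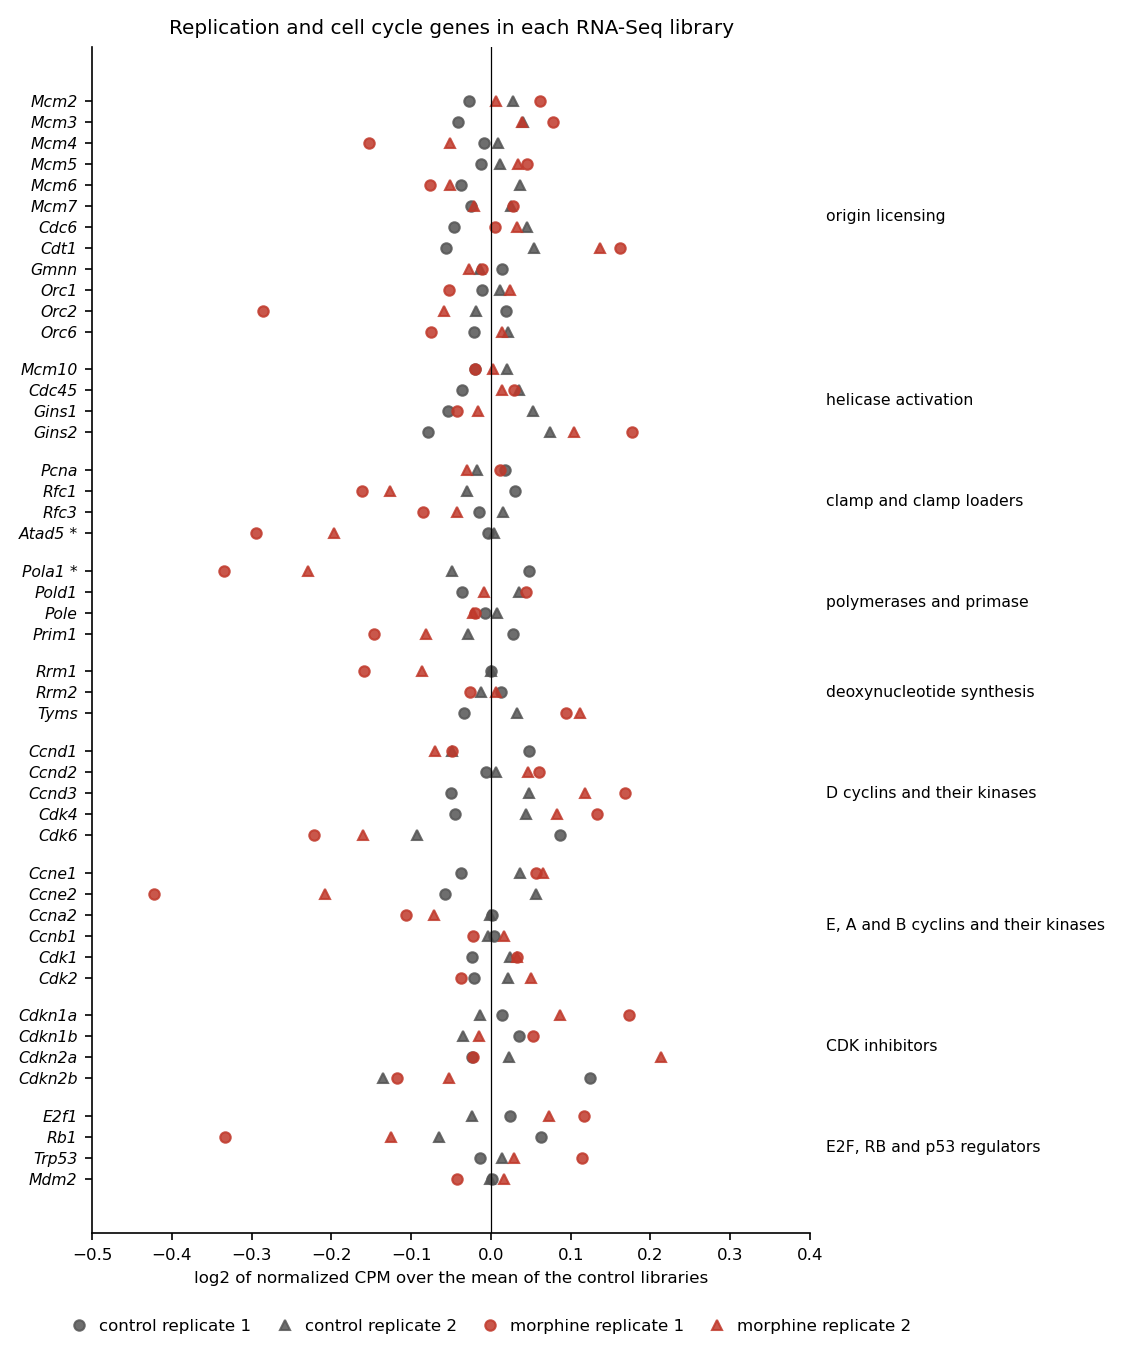
Level of each of the 46 genes in the 4 RNA-Seq libraries, as log2 of CPM over the mean of the 2 control libraries, grouped by role; grey points are control, red points morphine, circles replicate 1, triangles replicate 2. Asterisks mark Pola1 (172 and 160 CPM in control, 132 and 142 after morphine) and Atad5 (105 and 106, then 86.2 and 92.3), whose red points lie left of both grey points.

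Among the polymerase and primase genes the only called gene was Pola1, which encodes a single subunit of the primer-making enzyme. Pola1, the catalytic subunit of polymerase alpha (locus on chrX:93304766-93632155, minus strand), measured 172 and 160 CPM in the control libraries and 132 and 142 CPM after morphine. Both morphine values lay under both control values. The log2 fold change was -0.28 (SE 0.06), a fall of 17.7%, with an adjusted p of 0.0394. With trends of length and GC content removed it was -0.10 (adjusted p = 0.176). Of the other genes of this group, Prim1, the small primase subunit (log2 fold change -0.11, adjusted p = 0.256), and Pold1, the catalytic subunit of polymerase delta, did not pass. Pola2 and Prim2, further subunits of the primer-making enzyme, belong to the second list given below. Both were higher in both morphine libraries and did not pass, at 0.16 (adjusted p = 0.163) and 0.05 (adjusted p = 0.600). Pole, the catalytic subunit of polymerase epsilon, measured 171 and 173 CPM in control and 170 and 170 CPM after morphine, a log2 fold change of -0.02 (SE 0.05, adjusted p = 0.840). Pold1 and Pole, which copy the bulk of the DNA, thus stood 1.22% above and 1.48% below control, but both signs turned with length and GC trends removed, where Pold1 was called as lower (-0.14, adjusted p = 0.0492) and Pole stood at 0.03 (adjusted p = 0.779).

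Atad5 was the other gene called as lower. It is part of the loader-like complex that takes Pcna off DNA behind the fork (locus on chr11:80089400-80135791, plus strand). Its level was 105 and 106 CPM in control and 86.2 and 92.3 CPM after morphine, without overlap. The log2 fold change was -0.24 (SE 0.05), a fall of 15.6%, with an adjusted p of 0.0498, just inside the threshold, and was -0.07 with length and GC trends removed (adjusted p = 0.408). Rfc1, the large subunit of the clamp loader, measured 314 and 301 CPM in control and 275 and 282 CPM after morphine, again with both morphine libraries below, but did not pass (log2 fold change -0.14, SE 0.05, adjusted p = 0.107, and -0.04 with both trends removed). The clamp itself, Pcna, measured 199 and 194 CPM in control and 198 and 192 CPM after morphine, a log2 fold change of -0.01 (SE 0.05). All 4 genes of the clamp group, whose median GC content was 44.1%, had a negative fold change, with a median of -0.10, where 80.6% of all loci under 46% GC were negative. With length and GC trends removed 3 of the 4 were negative and Pcna stood at 0.10. Other clamp loader genes, from the second list given below, went both ways as fitted, and none passed. Rfc2, Rfc5 and Chtf18 stood at 0.10, 0.02 and 0.09, and Rfc4 and Dscc1 at -0.09 and -0.04.

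Leaving out a morphine library leaves a single one, which is assumed to vary like the controls, and the fit without morphine replicate 1 called 6 of 20350 loci, so a call missing there says little about a gene. Without morphine replicate 1 the log2 fold change was -0.23 for Pola1 (adjusted p = 0.485) and -0.20 for Atad5 (adjusted p = 0.492). Without morphine replicate 2 the values were -0.33 (adjusted p = 0.0520) and -0.29 (adjusted p = 0.0596), larger than with both libraries. The values were -0.23 for Pola1 and -0.25 for Atad5 without control replicate 1, and -0.33 and -0.24 without control replicate 2. Neither gene was called in a fit that removed a trend of length or GC content. Over 15 alternative fits the log2 fold change of Pola1 ran from -0.33 to -0.10 (adjusted p 4.6e-05 to 0.485) and that of Atad5 from -0.29 to -0.07 (adjusted p 0.00177 to 0.492), and each was called in 10 of them.

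The promoters of the called genes are printed from 250 bases before to 50 after the RefSeq start (GRCm38.p6, the mm10 coordinates), since Atad5 also carries an H3K27me3 peak after morphine while Pola1 does not. Capitals mark matches on either strand to an E2F-type motif, searched as TTTCGCGC, TTTGGCGC, TTTCCCGC or TTTGCCGC, with overlapping matches each counted. Positions count from 1 at the start base, negative before it.
Pola1, chrX:93632106-93632405, minus strand: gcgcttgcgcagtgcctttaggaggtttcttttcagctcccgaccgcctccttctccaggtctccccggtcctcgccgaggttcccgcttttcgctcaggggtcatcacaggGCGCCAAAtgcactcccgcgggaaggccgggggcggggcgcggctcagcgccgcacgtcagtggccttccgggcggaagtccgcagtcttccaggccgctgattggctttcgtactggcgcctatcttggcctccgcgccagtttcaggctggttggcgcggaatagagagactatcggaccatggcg
Atad5, chr11:80089150-80089449, plus strand: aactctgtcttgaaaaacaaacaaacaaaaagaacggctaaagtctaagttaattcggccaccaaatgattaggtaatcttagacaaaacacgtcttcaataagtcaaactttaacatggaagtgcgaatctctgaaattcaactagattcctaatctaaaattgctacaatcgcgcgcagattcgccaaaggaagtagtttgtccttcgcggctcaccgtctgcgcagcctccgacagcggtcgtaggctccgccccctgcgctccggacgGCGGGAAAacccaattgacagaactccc
Each held 1 match, beginning at position -138 in Pola1 and at position 23 in Atad5. The Pola1 window had a GC content of 65.7% and that of Atad5 46.3%.

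Origin licensing held no called gene among 12. The MCM2-7 helicase genes stayed near control. Mcm2 to Mcm7 had log2 fold changes between -0.10 and 0.06 with a median of 0.02, and adjusted p-values from 0.245 to 0.979. Cdt1, the factor that brings the helicase to origins, measured 251 and 271 CPM in control and 292 and 287 CPM after morphine, higher in both morphine libraries (log2 fold change 0.15, SE 0.05, adjusted p = 0.122). It was 0.02 with length and GC trends removed (adjusted p = 0.835). Its inhibitor Gmnn had a log2 fold change of -0.02 (SE 0.05). Orc2, a subunit of the origin recognition complex, measured 219 and 213 CPM in control and 177 and 207 CPM after morphine, with morphine replicate 1 well below the rest (log2 fold change -0.17, SE 0.07, adjusted p = 0.178). It was -0.06 without that library, -0.29 without morphine replicate 2 and -0.07 with both trends removed. Its locus overlaps Nif3l1.

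Helicase activation held no called gene among 4. Gins2, a GINS subunit, measured 101 and 112 CPM in control and 120 and 115 CPM after morphine, higher without overlap but by less than the test required (log2 fold change 0.14, SE 0.06, adjusted p = 0.215). Mcm10, Cdc45 and Gins1 had log2 fold changes between -0.03 and 0.02. The Gins2 locus overlaps Gse1. With both trends removed Gins2 stood at 0.05 (adjusted p = 0.652). Without control replicate 2 the log2 fold change was 0.21 for Cdt1 (adjusted p = 0.0324) and 0.22 for Gins2 (adjusted p = 0.0378), in a fit in which 7.90% of all loci were called, and without control replicate 1 it was 0.09 and 0.06. Over the 15 alternatives the adjusted p ran from 0.0324 to 0.869 for Cdt1 and from 0.0378 to 0.779 for Gins2.

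No gene of deoxynucleotide synthesis passed. Rrm1 and Rrm2, the subunits of ribonucleotide reductase, had log2 fold changes of -0.12 (adjusted p = 0.162) and -0.01 (adjusted p = 0.932), and Tyms, thymidylate synthase, of 0.10 (adjusted p = 0.296). The values of Rrm1 lay lower and those of Tyms higher in both morphine libraries.

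The D cyclins answer to growth signals and pair with Cdk4 or Cdk6. Ccnd1 measured 137 and 128 CPM in control and 128 and 126 CPM after morphine, with overlap (log2 fold change -0.06, SE 0.05, adjusted p = 0.564). Ccnd2 measured 8.08 and 8.15 CPM in control and 8.46 and 8.38 CPM after morphine (log2 fold change 0.05, SE 0.10, adjusted p = 0.825). Ccnd3 measured 271 and 291 CPM in control and 316 and 305 CPM after morphine (log2 fold change 0.14, SE 0.05, adjusted p = 0.131). None of the D cyclins passed, although the morphine libraries lay above both controls for Ccnd2 and Ccnd3. Without control replicate 2, Ccnd3 was called (log2 fold change 0.20, adjusted p = 0.0483, with a range of 0.0483 to 0.746 over the alternatives), while it stood at 0.09 without control replicate 1 and at 0.03 with both trends removed. The Ccnd3 locus overlaps Bysl and that of Ccnd2 overlaps 9330179D12Rik, so their counts are uncertain where reads were shared.

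Of their kinases, Cdk4 had a log2 fold change of 0.11 (SE 0.05, adjusted p = 0.209). Cdk6 measured 31.2 and 27.6 CPM in control and 25.2 and 26.3 CPM after morphine (log2 fold change -0.19, SE 0.08, adjusted p = 0.195). The control values of Cdk6 stood further apart than its nearest control and morphine values, and its log2 fold change was -0.10 without control replicate 1 and -0.06 with both trends removed.

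Among the later cyclins, Ccne2, cyclin E2, had the lowest value of all 46 genes in the reported fit, though not in every alternative. It measured 16.6 and 18.0 CPM in control and 12.9 and 15.0 CPM after morphine, without overlap, a log2 fold change of -0.31 (SE 0.09) with an adjusted p of 0.0981, and of 0.0244 to 0.560 over the 14 alternatives that gave one. It was -0.21 without morphine replicate 1 and -0.13 with both trends removed. The other and better expressed cyclin E gene, Ccne1 (cyclin E1), had a log2 fold change of 0.06 (SE 0.05, adjusted p = 0.505). Ccna2, Ccnb1, Cdk1 and Cdk2, which run S phase and mitosis, lay between -0.09 and 0.03. The Ccne2 locus overlaps Ints8.

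The CDK inhibitors did not pass either. Cdkn1a (p21), a p53 target that binds CDKs and Pcna, measured 92.6 and 90.8 CPM in control and 103 and 97.4 CPM after morphine, higher without overlap (log2 fold change 0.13, SE 0.05, adjusted p = 0.202). It was 0.09 without morphine replicate 1 and 0.02 with length and GC trends removed (adjusted p = 0.847). Cdkn1b (p27) measured 35.5 and 33.8 CPM in control and 35.9 and 34.3 CPM after morphine, so the groups overlapped (log2 fold change 0.02, SE 0.06, adjusted p = 0.907). Cdkn2a, whose locus encodes the CDK4/6 inhibitor p16 and the Mdm2 antagonist ARF, measured 13.4 and 13.8 CPM in control and 13.4 and 15.7 CPM after morphine (log2 fold change 0.10, SE 0.10, adjusted p = 0.591). The higher value of Cdkn2a came from morphine replicate 2 alone. Cdkn2b (p15) was near the limit of these libraries, at 86 and 77 counts in control and 67 and 78 counts after morphine, or 3.13, 2.62, 2.65 and 2.77 CPM (log2 fold change -0.08, SE 0.18, adjusted p = 0.850). At that depth even a change of Cdkn2b larger than its error could go uncalled, as did that of Ccne2 at -0.31 (SE 0.09).

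Rb1, the brake on E2F, measured 18.9 and 17.3 CPM in control and 14.4 and 16.6 CPM after morphine, lower without overlap (log2 fold change -0.22, SE 0.09, adjusted p = 0.201). It was -0.12 without morphine replicate 1, -0.33 without morphine replicate 2 and -0.06 with length and GC trends removed. Its locus overlaps Lpar6 and Rcbtb2. E2f1, Trp53 and Mdm2, the E2F activator, p53 and the ligase that removes p53, had log2 fold changes of 0.09, 0.07 and -0.01, and none passed. Of the 46 genes, 29 fell outside the rule for values in every library. Their log2 fold changes ran from -0.12 to 0.11, or from -8.09% to 7.76%, with adjusted p-values of 0.162 to 0.980.

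Levels between genes were compared as CPM per kb of locus length. Cdk4 stood highest at 440 CPM per kb over the 4 libraries, followed by Mcm3, Mcm5 and Mcm2 at 238, 232 and 231 CPM per kb, whose library ranges overlapped. The median of all tested loci was 3.31 CPM per kb. Among D cyclins, Ccnd3 stood at 52.1 to 60.6, Ccnd1 at 27.3 to 29.6 and Ccnd2 at 1.32 to 1.38 CPM per kb over the 4 libraries, with no overlap between the genes. Among inhibitors, Cdkn1a (40.8 to 46.5 CPM per kb) stood above Cdkn2a (11.8 to 13.9), Cdkn1b (7.72 to 8.21) and Cdkn2b (1.88 to 2.25). Ccne1, at 110 CPM per kb, stood far above Ccne2 at 4.86, and Cdk4 above Cdk6 at 2.37.

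**Figure D2:**
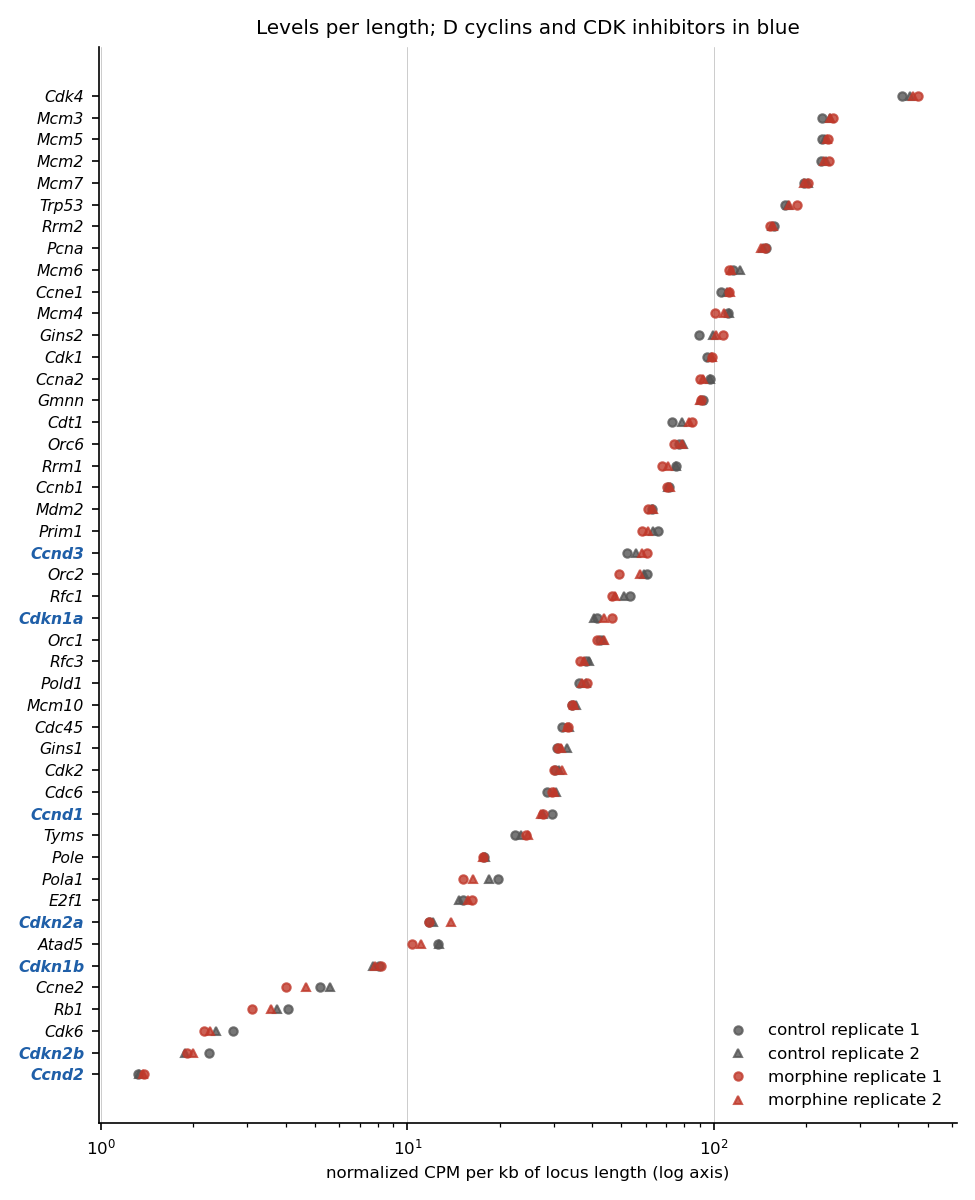
CPM per kb of locus length of each gene in each RNA-Seq library on a log axis, ordered by the mean, with grey for control, red for morphine, circles for replicate 1 and triangles for replicate 2. Levels run from 1.35 (Ccnd2) to 440 (Cdk4) CPM per kb, a far wider range than any gap between red and grey points of a gene.

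The fold changes of the 46 genes moved with the base composition of their exons. The 16 genes with a GC content under 46% included 15 with a negative log2 fold change, and the 15 genes at 52% or more included 14 with a positive one. Among all loci with a known GC content, 80.6% of the 4523 under 46% were negative and 77.9% of the 6907 at 52% or more were positive. Spearman's rho between log2 fold change and GC content was 0.74 across the 46 genes and 0.53 across 16662 loci, as a description over genes that share the same 4 libraries. Pola1 (41.1% GC) and Atad5 (41.6% GC) lay at the low end. The 932 loci within 1 point of the GC content of Pola1 had a median log2 fold change of -0.15, and the 1028 loci around that of Atad5 had -0.14. With length the relation was weaker, with a rho of -0.27 across the 46 genes and -0.14 across all 20350 loci. Whether GC content, length or the treatment set these fold changes was not tested.

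Once the trends of each library with length and GC content were removed, neither Pola1 nor Atad5 passed, as given above. With the length trend alone removed, the values were -0.21 for Pola1 (adjusted p = 0.0768) and -0.18 for Atad5 (adjusted p = 0.101), and none of the 46 genes passed. With both trends removed, 43 of the 46 genes lay within 10% of control, and rho with GC content was -0.06. Pold1 was then called as lower, at -0.14 (SE 0.03, adjusted p = 0.0492), against 0.02 before; it and Tyms were singled out after their values were seen. The fitted values then ran from -0.20 for Cdkn2b (SE 0.18) to 0.17 for Tyms (SE 0.04, adjusted p = 0.0553).

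**Figure D3:**
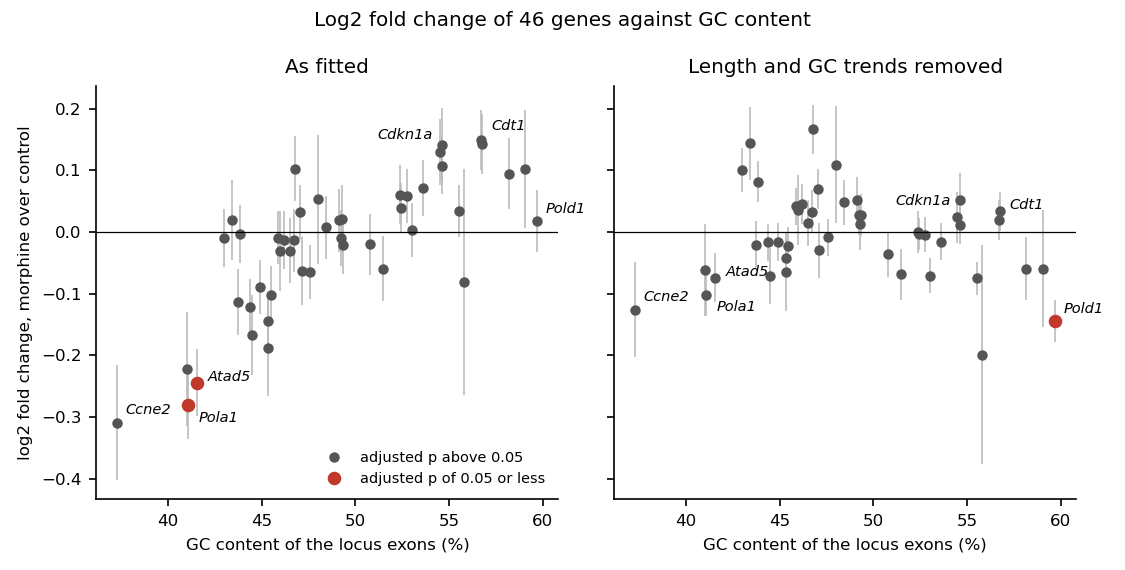
Log2 fold change (morphine over control, bars show the standard error) against the GC content of the locus exons (%) for the 46 genes, as fitted on the left and with length and GC trends removed on the right; red points have an adjusted p of 0.05 or less. Spearman's rho is 0.74 on the left, where Pola1 and Atad5 are red, and -0.06 on the right, where Pold1 is red.

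The called genes varied with the fit. DESeq2, edgeR's exact test and edgeR's likelihood ratio test each called Pola1 and Atad5 alone among the 46, and called 8.27%, 3.88% and 4.13% of the loci to which they gave an adjusted p. DESeq2 gave one to 7330 loci, with 41 of the 46 genes, and none to Ccnd2, Ccne2, Cdkn2a, Cdkn2b and Rb1. RLE and total count scaling called the same 2 genes, with 1.53% and 2.53% of loci. Under total count scaling 54.6% of the loci called were higher after morphine, against 40.5% under TMM. That share was 63.8% with the length trend removed, 61.7% with both trends removed and 27.9% without morphine replicate 2. With no filter on low counts, Orc2, Rfc1 and Ccne2 were also called as lower, in a fit that called 5.44% of loci. With a term for the replicate number, Ccne2 was added, with 5.54% of loci called. Removing the length trend left 0.462% of the 20350 loci called. The fits with both trends removed used the 16662 loci of known GC content, where 5.95% of loci and Pola1, Atad5 and Ccne2 were called with no trend removed. On those loci 1.57% were called with both trends removed, and 4.50% with the replicate term added, where Pold1 (lower) and Tyms (higher, adjusted p = 0.0159) were the called genes. Leaving out control replicate 1, morphine replicate 1 or morphine replicate 2 left 1.79%, 0.0295% and 1.11% of loci called.

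A second list held 109 other genes of the same pathways, of which 107 had a locus and all 107 were tested. There 2 were called as lower and 1 as higher, against 1.52% of all loci, with a median log2 fold change of -0.02, and 57 values were negative and 50 positive. Atr, the kinase of the replication checkpoint, measured 145 and 137 CPM in control and 101 and 114 CPM after morphine (log2 fold change -0.39, SE 0.06, adjusted p = 0.0173). Mki67, which coats mitotic chromosomes and marks cycling cells, measured 228 and 217 CPM in control and 184 and 194 CPM after morphine (log2 fold change -0.24, SE 0.05, adjusted p = 0.0450). Myc, a driver of growth and cycle entry, measured 47.3 CPM in both control libraries and 57.6 and 55.5 CPM after morphine (log2 fold change 0.26, SE 0.06, adjusted p = 0.04996). Kif11, a spindle motor, measured 231 and 222 CPM in control and 184 and 201 CPM after morphine and did not pass (log2 fold change -0.23, adjusted p = 0.0540). Top2a, topoisomerase II alpha, measured 1350 and 1348 CPM in control and 1136 and 1236 CPM after morphine and did not pass either (log2 fold change -0.19, adjusted p = 0.0621). Without morphine replicate 1, where 6 loci in all were called, the values of Atr, Mki67 and Myc were -0.32, -0.20 and 0.23. Myc was 0.22 with the length trend removed (adjusted p = 0.0871) and 0.17 with both trends removed (adjusted p = 0.106, and 0.062 with the replicate term), and did not pass. Without control replicate 1 or morphine replicate 2 it did not pass either, at 0.26 and 0.29 (adjusted p = 0.0954 and 0.0684). Mki67 did not pass at -0.16 with the length trend removed (adjusted p = 0.105), at -0.20 without control replicate 1 (adjusted p = 0.0896) or at -0.28 without morphine replicate 2 (adjusted p = 0.0596). With both trends removed Atr stood at -0.19 and Mki67 at -0.14. Atr passed at 0.05 in every alternative but that without morphine replicate 1, with adjusted p-values from 1.03e-08 to 0.342 over all 15. Among 15 other origin and helicase factors, with a median GC content of 45.8%, 12 had a negative value and none passed. With both trends removed 7 of the 15 were negative. Among 25 other replication fork factors tested, 10 values were negative and 15 positive, and none passed. Of the 19 p53 targets and partners none passed. The exons of Atr had a GC content of 40.0% and those of Myc 53.9%, and the Atr locus overlaps 2 others.

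H3K27me3, the mark laid down by PRC2, was examined at the promoters of the same genes as peaks within 1 kb of a transcription start site (TSS). The peaks were called by MACS in each library, and the score is -10 log10 of the p-value of a peak in its own library, at least 50, so that only presence and position were compared between libraries. A peak was found in any library at 7 of the 46 genes, against 27.3% of 14210 tested genes with a TSS, and none at 39, against 72.7%. Cdkn1b was the only gene with a peak in all 4 libraries (14.6% of tested genes) and so the only gene with one in both control libraries (17.4%). Atad5, Ccnd1, Cdkn1a and Cdkn1b had one in both morphine libraries (17.6%). Atad5 and Ccnd1 had a peak in both morphine and neither control library, a class of 1.24% of tested genes, and none of the 46 had the opposite pattern, a class of 0.746%. With 2 libraries a group and no counts under the peaks, these differences have no test.

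At the inhibitor genes the 4 patterns differed. Cdkn1a had a peak over its TSS in control replicate 1 (score 116) and in both morphine libraries (scores 269 and 233), and none in control replicate 2, where the nearest peak was 117 kb away. In the morphine libraries it reached 149 to 156 bp before the TSS and 1842 to 1851 bp into the gene. Within their own libraries 267 of 8681 and 810 of 12282 peaks scored higher, and 3077 of 10305 in control replicate 1. Strength was not compared between libraries. Cdkn1b had a peak of 3040 to 3454 bp upstream in every library, with scores of 116 and 160 in control and 53.6 and 72.3 after morphine. It ended 554 and 593 bp before the TSS in control and 750 and 253 bp before it after morphine. Cdkn2b had a wide upstream peak in control replicate 2 (5436 bp, score 266) and morphine replicate 1 (4887 bp, score 72.1), ending 49 and 65 bp before its TSS, and none in the other libraries. Cdkn2a had no promoter peak in any library. The presence of a peak at Cdkn2b therefore differed between replicates of each condition.

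Of the D cyclins only Ccnd1 had a peak. It lay at the start of the gene in both morphine libraries, from 17 bp before to 2014 bp after the TSS in replicate 1 (score 175) and from 45 to 2026 bp after it in replicate 2 (score 63.3). In the control libraries the nearest peak lay 40.8 and 40.9 kb away. The score in replicate 2 was weak, with 9177 of 12282 peaks above it. The nearest peak to a Ccnd2 start lay 24.8 to 33.3 kb away over the 4 libraries, and to a Ccnd3 start 35.4 to 65.7 kb away. Levels of Ccnd1 did not pass the test above.

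At Atad5 the peak covered the TSS in both morphine libraries, from 246 bp before to 1481 bp after it (score 124) and from 90 bp before to 1433 bp after it (score 59.1). In replicate 2 the score was near the minimum, with 10048 of 12282 peaks above it. Atad5 was the only gene of the 46 with both a called change in RNA and a promoter peak, although its adjusted p of 0.0498 became 0.408 with length and GC trends removed, and its replicate 2 peak was not among the strongest 8681. Pola1, the other called gene, had its nearest peak 291 to 603 kb from its start over the 4 libraries. Pole had a peak in morphine replicate 2 alone (score 56.6) and Rb1 one in control replicate 2 alone, beginning 808 bp inside the gene (score 80.7).

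**Figure D4:**
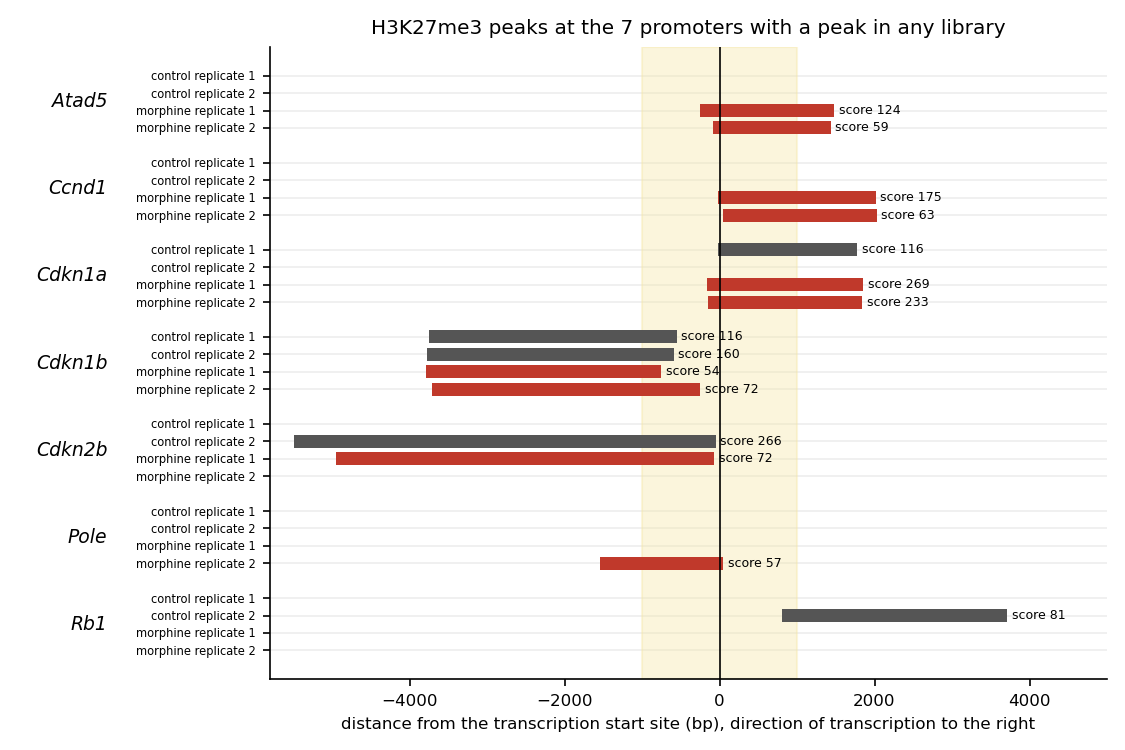
Extent of H3K27me3 peaks around the TSS (bp, transcription to the right) of the 7 genes with a promoter peak, by library, grey for control and red for morphine; the shaded band is 1 kb to either side and the score of each peak is printed beside it. Atad5 and Ccnd1 have bars in the 2 morphine libraries alone, Cdkn1b has bars in all 4, and Cdkn2b has bars in 1 library of each condition.

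The promoters of 2 inhibitor genes are printed on the same terms to show the sequence under or beside these peaks. The Cdkn1a window lies at the edge of its peak, with a GC content of 64.7% and 23 CpG, and the upstream peak of Cdkn2b ends inside its window, which has 57.7% GC and 18 CpG. Neither held a match to the E2F-type motif, so no letters are in capitals.
Cdkn1a, chr17:29093519-29093818, plus strand: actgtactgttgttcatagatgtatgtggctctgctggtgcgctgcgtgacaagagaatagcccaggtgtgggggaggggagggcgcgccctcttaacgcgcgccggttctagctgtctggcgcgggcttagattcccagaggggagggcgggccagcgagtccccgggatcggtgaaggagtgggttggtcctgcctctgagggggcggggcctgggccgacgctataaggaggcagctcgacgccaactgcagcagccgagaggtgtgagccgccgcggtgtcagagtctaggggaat
Cdkn2b, chr4:89310983-89311282, minus strand: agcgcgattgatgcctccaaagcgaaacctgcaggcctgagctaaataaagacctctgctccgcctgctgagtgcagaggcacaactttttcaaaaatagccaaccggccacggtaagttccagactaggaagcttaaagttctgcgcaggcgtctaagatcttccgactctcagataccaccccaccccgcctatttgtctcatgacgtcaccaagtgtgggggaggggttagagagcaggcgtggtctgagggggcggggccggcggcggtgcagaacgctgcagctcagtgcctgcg

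RefSeq promoter sequences were matched for 36 of the 46 genes, as 41 promoters of 300 bases. The E2F-type motif stood in 14 of the 41 (34.1%), 1 for each of 14 genes, against 2.26% of all 32851 promoters, a description with no test. The genes were Mcm3, Mcm5, Mcm6, Mcm7, Orc1, Cdc6 and Cdt1 of origin licensing, Atad5 and Rfc3, Pola1 and Pold1, Cdk1 and Cdk2, and Cdkn2a. The median member promoter had 24 CpG and 60.3% GC, against 7 CpG and 52.7% GC for all promoters. Of the 14 genes, Pola1 and Atad5 were called as lower and the other 12 did not pass. Ccna2, Ccnd1, Ccnd2, Ccne2, Gins1, Gins2, Gmnn, Mcm4, Pole and Rb1 were not matched.

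Mcm6, a helicase subunit, had the most matches, and its promoter shows how they can cluster. The matches begin at positions -110, -106 and -47, the first 2 sharing bases. Its RNA measured 512 and 538 CPM in control and 498 and 507 CPM after morphine, a log2 fold change of -0.06 (SE 0.04, adjusted p = 0.443).
Mcm6, chr1:128359656-128359955, minus strand: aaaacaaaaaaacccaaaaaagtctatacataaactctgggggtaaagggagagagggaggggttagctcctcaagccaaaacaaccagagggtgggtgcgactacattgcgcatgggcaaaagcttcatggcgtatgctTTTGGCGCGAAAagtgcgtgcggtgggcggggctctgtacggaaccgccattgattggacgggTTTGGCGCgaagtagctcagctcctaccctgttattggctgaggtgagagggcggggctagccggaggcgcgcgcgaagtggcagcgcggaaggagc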

How the data were processed

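Oct4-GFP mESCs were compared after 24 h with 10 µM morphine or NaCl vehicle, with 2 RNA-Seq and 2 H3K27me3 ChIP-Seq libraries a condition. The deposited RNA-Seq values are raw counts per locus, which the authors made on mm10 with HISAT2 2.1.0, StringTie 1.3.6 and featureCounts 1.6.4. The strand setting of the counting and the treatment of reads with several alignments are not given in the sources used here, while the library kit was stranded. The deposited peak lists, from Bowtie2 2.3.5.1 and MACS (p-value limit 1e-05, 1 list a library), carry a score of -10 log10 of the p-value. ChIP reads were not used here.

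Loci past filterByExpr were fitted with edgeR 4.0.16 (R 4.3.3) in 1 model over the table as deposited, with TMM scaling, the quasi-likelihood test and Benjamini-Hochberg adjustment, at an adjusted p of 0.05. Total counts ran from 25081266 to 29531096, and rows without a gene name, which hold 1.88% to 2.40% of the counts, are assembled loci and stayed in the fit. On simulated data drawn from these libraries for morphine minus control, 19972 loci were fitted. The fit called 85 of 100 loci changed by 0.5 on the log2 scale and 100 of 100 changed by 1. It called 8 of 19772 unchanged loci. The log2 fold changes of the 46 genes ran from -0.31 to 0.15, and detection of sizes under 0.5 was not tested. Replicates differed by more than sampling noise, with a chi-square per degree of freedom of 5.83 in control and 3.43 in morphine. TSS positions and GC content came from GENCODE vM21, and promoter sequences from RefSeq, both on GRCm38, the assembly of mm10. A promoter peak lies within 1 kb of a TSS.

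The 46 genes and all lists were chosen with earlier results of these data known. Values in every library are given for genes past the threshold, the 10 largest absolute fold changes, the CDK inhibitors, the D cyclins and genes with a promoter peak, and for the other pathway genes for those called or the 5 with the smallest p. The loci of 15 of the 46 genes overlap another locus, and Pcna, Tyms, Ccnd3, Ccnb1 and Trp53 have named pseudogene copies, so counts shared with these are uncertain. Alternatives were DESeq2 1.42.0 (no adjusted p for 13020 of 20350 loci, left out of its counts), other edgeR tests, RLE and total count scaling, no filter, a replicate block, removal of length and GC trends by natural splines with 5 degrees of freedom, an adjusted p of 0.01, each replicate left out, and for peaks a score of 100, the strongest 8681 peaks, 3 kb and peak midpoints.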

Additional observations from a re-analysis of the deposited data

How the results depend on the processing

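Of 255 single-gene values over 17 genes, 223 kept their direction and side of the threshold, 5 kept their direction where DESeq2 gave no adjusted p, 10 lost a call, 8 gained one and 9 turned sign. The 2 calls among the 46 genes became 0 at an adjusted p of 0.01, 5 with no count filter, 0 with the length trend removed, 1 with length and GC trends removed, and 0 to 5 when single libraries were left out (0 without either morphine replicate, 5 without control replicate 2). The 3 calls among the other pathway genes became 0 at an adjusted p of 0.01, 8 with DESeq2, 5 with the exact test, 5 with the likelihood ratio test, 16 with no count filter, 1 with the length trend removed, and 0 to 13 when single libraries were left out. The median log2 fold change, -0.00924 as reported, was 0.0106 under total count scaling (all loci 0.0211), -0.0303 with the length trend removed, and -0.0217 to 0.00425 when single libraries were left out. The cause was not tested.

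With a replicate block, 3 of the 46 genes were called (Ccne2 added, -0.312, adjusted p = 0.0407), 7 other pathway genes and 1128 loci in all against 309. The deviations of same-numbered libraries correlated at 0.0264 over 20350 loci, so the numbers were not taken as pairs. Chosen after seeing the data, the replicate block with both trends removed called 6 other pathway genes, and the loci of known GC content alone, with no trend removed, called 10.

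Among the 17 genes signs turned for Pole (0.0566 with the length trend removed, 0.0273 with both, 0.0273 with both and the block), Cdkn2a (-0.0594 with both, -0.0609 with both and the block, and -0.0231 to 0.213 when single libraries were left out), Cdkn2b (-0.204 to 0.0494 when single libraries were left out) and Cdkn1b (-0.0149 to 0.0532 likewise, with -0.0136 without control replicate 2), none of them called in any fit. Among all 46 genes 23 turned sign in at least 1 fit and 17 with both trends removed, of which Pold1 was called there. Promoter peaks in both control libraries, 1 gene as reported, were 2 with 3 kb, 0 by midpoint and 2 to 3 in single libraries. Those in both morphine libraries, 4 as reported, were 1 at a score of 100, 2 among the strongest 8681 peaks, 2 by midpoint and 5 in single libraries. Depth limits Cdkn2b, at 67 to 86 counts a library, and 2 libraries a condition limit every call.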
